A study of Mus musculus with 4 samples.

Results

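Non-clustered protocadherins are cell adhesion proteins of the cadherin superfamily whose genes lie scattered over the genome, each with its own promoter, outside the alpha, beta and gamma arrays of clustered protocadherins. The 10 genes described here are Pcdh1, Pcdh7, Pcdh9, Pcdh8, Pcdh10, Pcdh17, Pcdh18, Pcdh19, Pcdh20 and Pcdh15, chosen by their symbols from the 43348 features of the count matrices. All 10 are in the matrices, and Pcdh11x and Pcdh12 of the same family were followed beside them.

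The proteins bind mostly to themselves on a facing membrane, so that cells with the same member adhere, and their cytoplasmic tails pass the contact on to the actin skeleton and to other adhesion proteins. The δ1 group (Pcdh1, Pcdh7, Pcdh9, Pcdh11x) has a long ectodomain and a tail motif that binds protein phosphatase-1, and the δ2 group (Pcdh8, Pcdh10, Pcdh17, Pcdh18, Pcdh19) has a shorter ectodomain, with several members that bind the WAVE complex, which starts actin branches. In the developing brain they are known for patchy expression by cell type, for the bundling and targeting of axons, and for the building and removal of synapses.

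The measurements are single-cell RNA counts (10x Genomics, 3′ ends, unique molecular identifiers, UMIs) of TdTomato-positive cells from the frontal cortex and the hippocampus of juvenile mice at postnatal day 18-20. The mice carried Nkx2.1-Cre with the Ai14 reporter and had either wild-type Grin1 (WT) or floxed Grin1 on both chromosomes (null), so that Cre and the reporter were present in both genotypes, and the controls were littermates. Grin1 encodes the obligate subunit of the NMDA receptor, and the comparison asks what its loss from cells of the medial ganglionic eminence does to their RNA. The 10 libraries were 3 from WT cortex, 3 from WT hippocampus, 2 from null cortex and 2 from null hippocampus.

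Several things limit these groups as a model. Nkx2.1-Cre marks a lineage and not a cell type, and besides interneurons the sorted cells held oligodendrocytes and their precursors, astrocytes and excitatory neurons. Libraries pooled several animals, so the p-values given here measure the spread between libraries of pooled animals. Mice of both sexes were used, and which sexes each library held is not known here. Dissociation was done with blockers of action potentials, NMDA receptors and transcription in the buffers. Replicate 1 of each group was made with version 2 of the chemistry and replicates 2 and 3 with version 3, and the null groups have no replicate 3, so a change within replicate 1 and within replicate 2 is given beside the pooled changes that separate the groups. Libraries are listed in the order of their replicate number throughout.

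Depth differed between libraries. The WT cortical libraries held 1277, 3851 and 3960 cells with 9306756, 14212183 and 28057207 UMIs in all, and the WT hippocampal libraries 2221, 4600 and 3159 cells with 10555408, 8782181 and 20639002 UMIs. Null cortical libraries held 181 and 2898 cells with 1488601 and 25688337 UMIs, and null hippocampal libraries 404 and 4436 cells with 3856745 and 47338167 UMIs. The median number of UMIs per cell was 7098, 2903 and 6519 in WT cortex, 4411, 1479 and 5741 in WT hippocampus, 6641 and 8224.5 in null cortex and 8839 and 9508 in null hippocampus. WT hippocampus replicate 2 was the shallowest library, with the most cells. It also stood apart in clustering: cluster 8 held 74.4% of its SST cells, cluster 17 held 99.4% of its NGFC cells, clusters 4 and 12 held 66.5% and 31.7% of its OLIGO cells, cluster 28 held 70.2% of its OPC cells and cluster 15 held 97.7% of its COP cells. Results that move with this library are therefore given with and without it. Of 45 pairs of libraries, 22 shared a cell barcode, with 95 shared barcodes in all and at most 12 in a pair.

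Cells were grouped into classes named from marker genes, with every protocadherin kept out of the genes used to cluster: SST-like and PVALB-like interneurons, neurogliaform-like cells (NGFC), oligodendrocyte precursor-like (OPC), committed precursor-like (COP) and oligodendrocyte-like cells (OLIGO), and smaller classes of excitatory neuron-like (GLUT), astrocyte-like (ASTRO), microglia-like (MICRO), endothelial-like (ENDO) and choroid plexus-like (CHOROID) cells. The ASTRO class is cluster 20, whose mean score was 4.41 for astrocyte and 4.39 for mural cell markers, with Acta2 and Vtn among its top 10 genes, so its levels may belong to either. Th-expressing clusters 11 and 13, led by Th and by Crh with Tac2, were counted with SST. UMIs were summed per library and class where a library had at least 10 cells of it, and levels are in CPM, the UMIs of a gene scaled to all UMIs of such a sum.

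The markers that named the classes were also summed, which describes the classes and is no separate check of their names. Over the 10 libraries the 6 SST markers, led by Sst, summed to 9303 to 17456 CPM in the SST class, against 74.3 to 468 CPM in NGFC. The 7 PVALB markers summed to 3379.8 to 6697 CPM in PVALB and to 530.2 to 1156 CPM in SST, and the 6 NGFC markers to 3245 to 4728.5 CPM in NGFC and 39.99 to 205 CPM in SST. The 5 OPC markers with a count summed to 3747 to 7714 CPM in OPC and 13.9 to 41.3 CPM in OLIGO. In the neuronal classes 8 of the 9 OLIGO markers summed to 82.9 to 631 CPM in SST, 17.96 to 429.6 CPM in PVALB and 21.3 to 826 CPM in NGFC, against 12409.6 to 32477 CPM in OLIGO. These sums are a lower bound for the list, and whether the counts came from free RNA or mixed droplets was not tested.

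Grin1 followed the genotype labels. In SST cells it was at 153, 254 and 233 CPM in the WT cortical libraries and 36.7 and 28.4 CPM in the null ones, and at 121, 175 and 158 CPM in WT and 20.8 and 21.8 CPM in null hippocampus. In PVALB cells it was at 111, 213 and 176 CPM in WT and 43.1 and 21.4 CPM in null cortex, and at 102, 168 and 124 CPM in WT and 23.6 and 16.96 CPM in null hippocampus. Every null library was below every WT library of its region in both classes. The same held in NGFC, with 114, 183 and 168 CPM in WT and 36.2 CPM in the 1 usable null cortical library, and 115, 110.2 and 134 CPM in WT and 33.6 and 15.5 CPM in null hippocampus. The change was -2.72 (adjusted p = 0.0302) and -2.81 (adjusted p = 0.0227) on the log2 scale in SST cells by edgeR's quasi-likelihood test, lower in 2 of 2 null libraries in each region. A gene was called where the p adjusted by Benjamini and Hochberg over all genes tested was under 0.01 and the log2 change at least 0.144 in size, and Grin1 itself did not pass. OPC and OLIGO sums held at most 39.8 and 8.24 CPM of Grin1, so its loss could not be followed there.

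In WT cells the members differed by class, and the clearest separations were of Pcdh9 in OLIGO and of Pcdh15 in OPC. Both stood above all other classes in every WT library, by several-fold on average. Pcdh18 was mostly in SST cells and Pcdh19 highest in PVALB cells, while Pcdh7, Pcdh10 and Pcdh17 were spread over interneurons and the oligodendrocyte lineage. Pcdh8 was highest in NGFC and PVALB cells, Pcdh20 in ASTRO and OPC, and Pcdh1 in SST and GLUT. The classes come from clustering the same cells, so these levels are a description with no test, over 6 WT libraries except 5 for GLUT and 4 for MICRO.

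**Figure D1:**
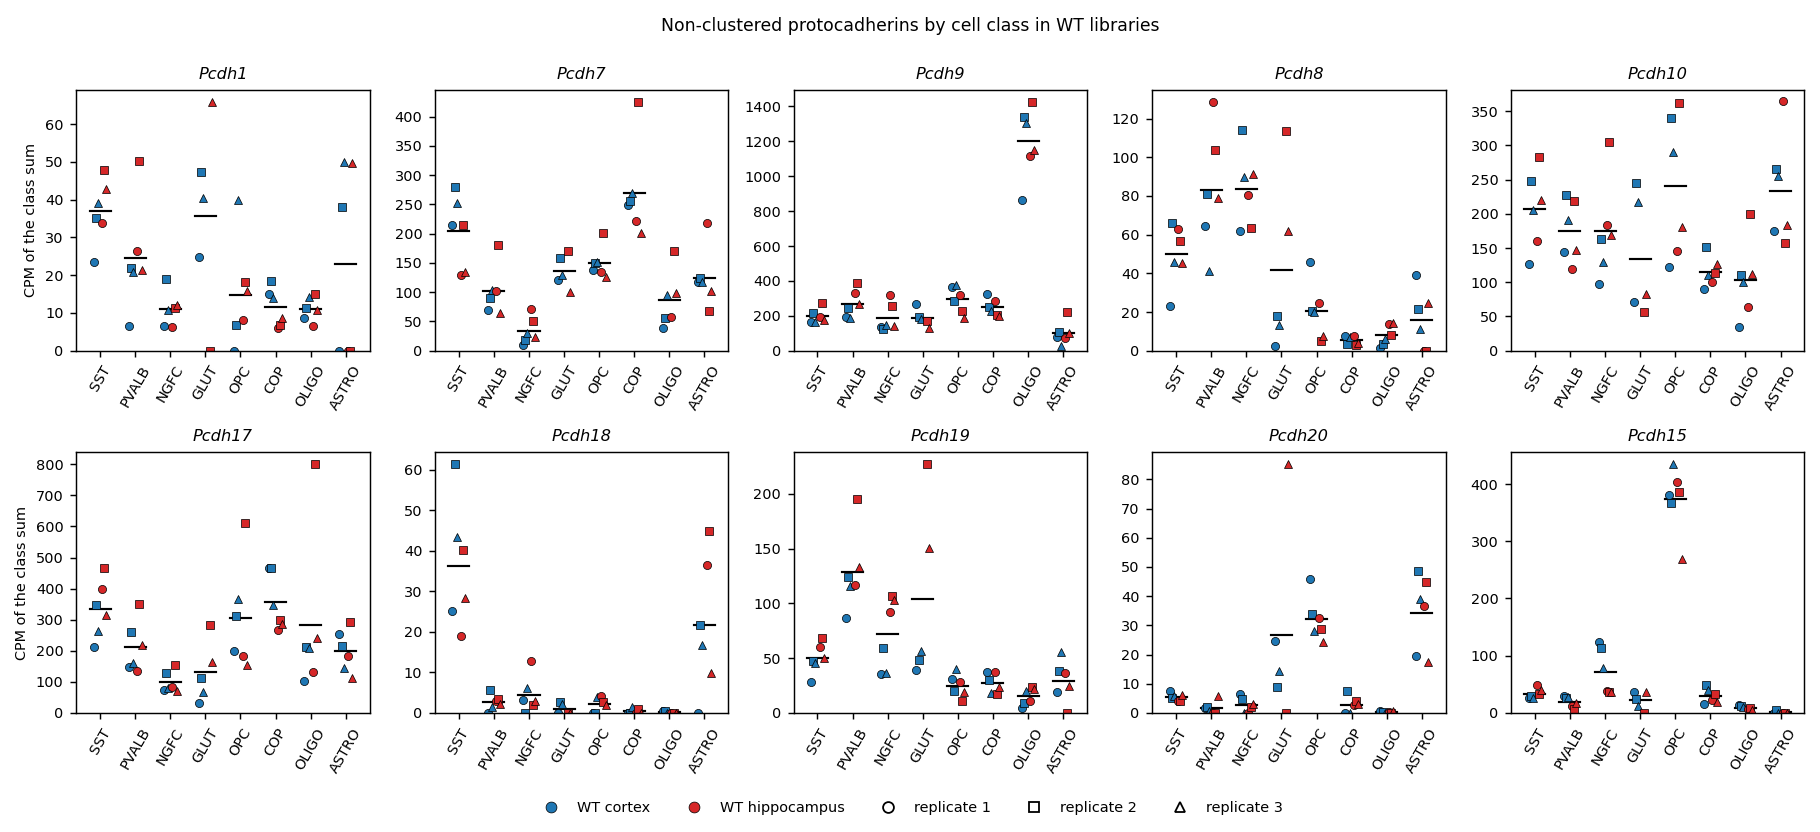
Level of each of the 10 members in CPM of the class sum (y axis, linear) in 8 cell classes of WT cells (x axis), with 1 point per WT library, coloured by region, and a bar at the mean. Pcdh9 in OLIGO (864 to 1425 CPM) and Pcdh15 in OPC (269 to 434 CPM) lie above the points of every other class drawn.

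Among the δ1 members, Pcdh9 had a lowest, median and highest level of 864, 1226 and 1425 CPM over the WT OLIGO sums (mean 1199.7 ± 202 CPM, SD). The next class was OPC at 295 ± 76.05 CPM (186 to 379), and no OLIGO library reached down to it. Below OPC the order was PVALB at 269 ± 78.1 CPM, COP at 248 ± 48.8 CPM, SST at 198 ± 40.8 CPM, GLUT at 189 ± 50.6 CPM, NGFC at 188 ± 79.9 CPM and ASTRO at 103 ± 66.2 CPM, with ranges that overlapped from each class to the next. Among classes of at least 4 libraries MICRO was lowest at 17.5 CPM. Without WT hippocampus replicate 2 the OLIGO mean was 1155 ± 189 CPM. Pcdh9 was thus the only member with its highest level in mature oligodendrocytes.

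Pcdh7, which binds protein phosphatase-1 alpha and the histone chaperone Set, was highest in COP, at 270.3 ± 79.9 CPM (201 to 425), followed by SST at 204 ± 60.9 CPM (129 to 279) and OPC at 149.8 ± 26.8 CPM (125 to 201). PVALB at 101 ± 41.9 CPM and OLIGO at 85.96 ± 47.5 CPM came lower, and NGFC at 34.2 ± 22.9 CPM was the lowest neuronal class. COP and SST overlapped, whereas COP was above OPC and above OLIGO in every library. Without WT hippocampus replicate 2, whose PVALB level of 180 CPM is high, SST (129 to 279 CPM) no longer overlapped PVALB (64.2 to 103 CPM). Pcdh1, also called axial protocadherin, had its highest means in SST at 37.01 ± 8.36 CPM, GLUT at 35.6 CPM and PVALB at 24.5 CPM, and NGFC was at 10.995 CPM. Leaving out WT hippocampus replicate 2 put GLUT at 44.5 CPM, SST at 34.9 CPM, ASTRO at 27.5 CPM and PVALB at 19.3 CPM. Pcdh11x had its highest level in OPC at 252 ± 58.95 CPM (198 to 336), apart from COP at 61.01 CPM.

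Among the δ2 members, Pcdh8, whose neuronal form is induced by activity and draws N-cadherin into the cell, was highest in NGFC at 83.6 ± 19.5 CPM (62.1 to 114) and PVALB at 82.9 ± 30.4 CPM (40.97 to 128), which did not differ beyond their spread. SST followed at 49.95 ± 15.6 CPM, and the oligodendrocyte lineage was at or below 20.5 CPM. Pcdh10, a member that recruits the WAVE complex and takes part in synapse removal, was at 240.5 ± 104 CPM in OPC, 234 ± 78.2 CPM in ASTRO, 208 ± 57.2 CPM in SST, 175 CPM in NGFC and 175 CPM in PVALB, all with overlapping ranges. Of the classes with at least 4 libraries, OLIGO at 103 ± 56.02 CPM was the lowest above MICRO, at 12.03 CPM.

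Pcdh17, which guides axon bundles and presynaptic assembly, was at 355 ± 90.3 CPM in COP, 334 ± 91.9 CPM in SST, 304 ± 171 CPM in OPC, 283 ± 259 CPM in OLIGO and 212 ± 82.6 CPM in PVALB, with NGFC lower at 98.97 ± 33.95 CPM (71.2 to 154). The OLIGO mean rested on WT hippocampus replicate 2, which was at 801 CPM against 101, 212 and 209.7 CPM in the cortical libraries and 133 and 240 CPM in the other hippocampal ones. Without it the OLIGO mean was 179 ± 59.1 CPM (101 to 240) and lay below COP (267 to 467 CPM). Pcdh18, which binds the reelin adaptor Dab1, was highest in SST at 36.2 ± 15.3 CPM (18.97 to 61.3), with ASTRO at 21.6 ± 16.7 CPM and every other class of at least 4 libraries at or below 4.49 CPM. SST was above PVALB and above NGFC in every library.

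Pcdh19, an X-linked gene whose mutations cause an epilepsy mainly in girls and whose protein pairs with N-cadherin, was highest in PVALB at 129 ± 36.4 CPM (86.6 to 196). GLUT at 104 ± 81.9 CPM and NGFC at 72.3 ± 32.5 CPM overlapped PVALB, whereas SST at 50.1 ± 13.8 CPM (28.1 to 68.6) lay below every PVALB library. The GLUT mean was 73.8 ± 51.8 CPM (39.6 to 151) without WT hippocampus replicate 2. In the oligodendrocyte lineage the mean was 27.3 CPM in COP and 24.7 CPM in OPC, and 15.2 CPM in OLIGO. Pcdh20, usually set apart from both δ groups, was at 34.3 ± 13.1 CPM in ASTRO and 32.2 ± 7.48 CPM (24.3 to 45.8) in OPC, with GLUT at 26.6 ± 33.9 CPM and SST at 5.44 CPM. Its level in OPC was above OLIGO and above COP in every library.

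Pcdh15, which with Cdh23 forms the tip link that gates the transduction channel of hair cells, had a lowest, median and highest level of 269, 384 and 434 CPM in the WT OPC sums (mean 373 ± 56.2 CPM, SD). NGFC was next at 71.4 ± 40.2 CPM (36.9 to 124), below every OPC library. SST at 33.8 ± 8.42 CPM, COP at 29.3 ± 12.9 CPM and PVALB at 19.9 ± 9.41 CPM (6.93 to 29.5) followed, and OLIGO was at 9.40 ± 2.70 CPM (5.70 to 12.9). Taken as whole classes, from OPC to COP to OLIGO its level was lower at each step, without overlap between the libraries. By cluster the last step did not hold throughout. COP cluster 16 was at 2.20 CPM (0 to 8.35), below OLIGO cluster 0 at 14.5 CPM (9.41 to 21.5), while OLIGO cluster 18 was at 0.130 CPM. Pcdh12, known mainly from endothelium, had no UMI in WT OLIGO, OPC, COP or GLUT cells, which allows up to 0.163, 1.71, 0.556 and 1.24 CPM (95% Poisson interval), and it was too sparse to place in a class, with 1 UMI in ENDO (1 usable library, 95% Poisson interval 0.336 to 73.9 CPM) and 3 UMIs in MICRO (2.63 to 37.3 CPM). In the ENDO library Pcdh1 was at 106 CPM (8 UMIs, 95% Poisson interval 45.8 to 209).

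Read pair by pair over the WT libraries, SST cells were above PVALB cells without overlap for Pcdh18 and PVALB above SST for Pcdh19, 1 of 10 members each way, beside 2.87% and 1.93% of 14133 genes with at least 30 UMIs. Against NGFC, SST was above for Pcdh1, Pcdh7, Pcdh17 and Pcdh18 and below for none, beside 4.90% and 2.67% of genes. PVALB was above NGFC for no member and below it for Pcdh15, beside 3.12% and 2.15%. In the oligodendrocyte lineage, OPC was above OLIGO for Pcdh15 and Pcdh20 and below it for Pcdh9, beside 18.1% and 7.86% of genes. OPC was above COP for Pcdh15 and Pcdh20 and below it for Pcdh7, beside 8.40% and 4.46%. COP was above OLIGO for Pcdh7 and Pcdh15 and below it for Pcdh9, beside 11.5% and 5.90%. Without WT hippocampus replicate 2 these separations held, and Pcdh7 (SST above PVALB, OPC above OLIGO), Pcdh10 (OPC above OLIGO) and Pcdh17 (PVALB above NGFC, COP above OLIGO) also separated. The direction can be steady where ranges overlap: Pcdh7 and Pcdh17 were higher in SST than in PVALB cells of the same library in 6 of 6 WT libraries, and Pcdh9 was lower in 6 of 6.

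Shares of cells with a UMI were set side by side for a class with a high level of a member and a class with a low one. A Pcdh9 UMI was present in 89.97% of 5462 WT OLIGO cells, against 0.966% of 207 WT MICRO cells, at median depths of 3316.5 and 1096 UMIs. After thinning each cell to 1000 UMIs the shares were 68.2% and 0.877%, with 627 and 93 shallower cells left out. Pcdh15 had a UMI in 43.3% of 1156 WT OPC cells at a median depth of 1456.5 UMIs and in 3.35% of the OLIGO cells, and 29.8% against 0.641% after thinning, with 320 OPC cells left out. Both contrasts kept their direction at equal depth. Pcdh18 had a UMI in 17.998% of 4956 WT SST cells, at a median depth of 6241 UMIs, and in 0.0366% of OLIGO cells, and in 3.45% against 0.0207% after thinning, with 324 SST cells left out. Pcdh19 had a UMI in 47.02% of 1578 WT PVALB cells, at a median depth of 6807.5 UMIs, and in 5.35% of OLIGO cells, and in 12.3% against 1.37% after thinning, with 20 PVALB cells left out.

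How many members a single WT cell showed depended on its depth, and a UMI may also come from free RNA. The median number of members with a UMI was 3 per SST or PVALB cell and 2 per NGFC, OPC or OLIGO cell, and 1 in each of these classes after thinning. At least 2 members were seen in 81.5% of SST cells, 83.8% of PVALB cells, 59.2% of NGFC cells, 57.4% of OPC cells and 57.2% of OLIGO cells, and in 25.97%, 19.3%, 16.04%, 35.4% and 24.8% of them after thinning.

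Within classes, several members were higher in some clusters than in the class as a whole. Pcdh15 was high in a small Crabp1-expressing PVALB cluster, Pcdh8 in that cluster and in a Pthlh-led PVALB cluster, Pcdh19 in the Pthlh-led cluster, Pcdh18 in the Chodl and Nos1 cluster of SST cells, and Pcdh17 in the Th-led cluster and in OLIGO cluster 18. The values below are over WT libraries with at least 10 cells of a cluster.

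**Figure D2:**
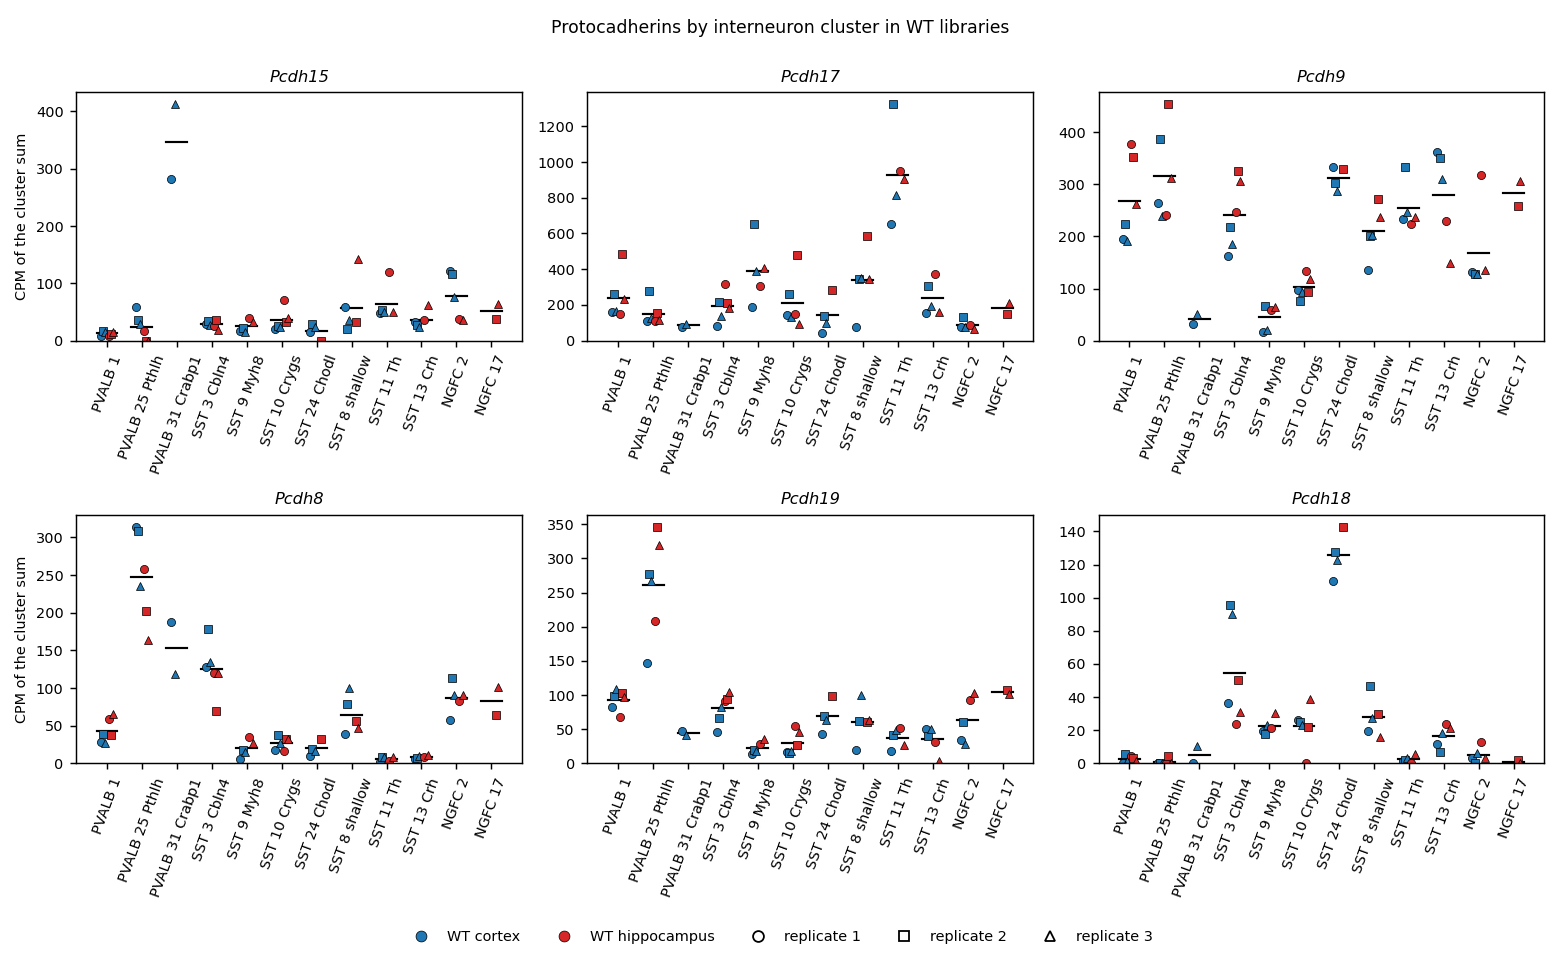
Level of Pcdh15, Pcdh17, Pcdh9, Pcdh8, Pcdh19 and Pcdh18 in CPM of the cluster sum (y axis) in 12 interneuron clusters (x axis), with 1 point per WT library of at least 10 cells and a bar at the mean. Pcdh15 is at 282 and 412 CPM in cluster 31, Pcdh17 at 653 to 1325 CPM in cluster 11 and Pcdh18 at 109.9 to 143 CPM in cluster 24.

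Among PVALB cells, cluster 1 is led by Cartpt, Syt2 and Pvalb, cluster 25 by Pthlh, and cluster 31 by Crabp1, Kit and Pthlh. Pcdh15 was at 282 and 412 CPM (2 libraries) in cluster 31, on 18 and 80 UMIs, at 12.6 ± 3.35 CPM (8.70 to 16.6, 6 libraries) in cluster 1 and at 23.3 ± 22.7 CPM (0 to 58.9, 6 libraries) in cluster 25. Both WT libraries of cluster 31 were above every library of the other PVALB clusters, and the null cortex library with enough cells of it was at 238 CPM on 192 UMIs. Pcdh8 was at 247 ± 59.2 CPM (164 to 314, 6 libraries) in cluster 25 against 42.5 ± 15.9 CPM (26.4 to 65.4, 6 libraries) in cluster 1, and Pcdh19 at 261 ± 73.2 CPM (147 to 346, 6 libraries) against 92.9 ± 15.2 CPM (67.3 to 109, 6 libraries). For both genes no library of cluster 25 overlapped cluster 1. Cluster 31 had Pcdh8 at 119 and 188 CPM (2 libraries), also above cluster 1 and overlapping cluster 25, and Pcdh19 at 41.2 and 46.99 CPM (2 libraries). Pcdh10 ran the other way in cluster 31, at 15.5 and 15.7 CPM (2 libraries) against 168 ± 54.9 CPM (76.3 to 226, 6 libraries) in cluster 1.

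Among SST cells, Pcdh18 was at 126 ± 13.5 CPM (109.9 to 143, 4 libraries) in cluster 24, led by Chodl, Nos1 and Npy, at 54.6 ± 30.97 CPM (23.7 to 95.8, 6 libraries) in cluster 3, led by Cbln4, and at 2.45 ± 2.05 CPM (0 to 5.44, 5 libraries) in cluster 11, led by Th. Cluster 24 was above cluster 3 in every library. Pcdh17 was at 929 ± 249 CPM (653 to 1325, 5 libraries) in cluster 11, several times the SST mean. Pcdh9 ranged from 45.3 ± 24.7 CPM (16.1 to 66.3, 5 libraries) in cluster 9, led by Ppapdc1a and Myh8, through 102 ± 20.5 CPM (76.7 to 134, 6 libraries) in cluster 10, led by Crygs, to 313 ± 21.8 CPM (287 to 332, 4 libraries) in cluster 24, with no overlap between them. Chrna2 was among the top 10 genes of both cluster 9 and cluster 10. Pcdh8 was at 125 ± 34.8 CPM (70.1 to 179, 6 libraries) in cluster 3 against 49.95 CPM in the class, and Pcdh20 reached 16.6 ± 8.10 CPM (11.2 to 30.7, 5 libraries) and 19.7 ± 4.91 CPM (13.7 to 25.01, 5 libraries) in clusters 11 and 13, where other SST clusters were at or below 2.80 CPM.

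Along the oligodendrocyte lineage, Pcdh15 was at 458 ± 92.4 CPM (330.3 to 547, 5 libraries) in OPC cluster 14, at 232 ± 76.9 CPM (155 to 359, 5 libraries) in the cycling, Top2a-led OPC cluster 27, at 42.7 ± 13.6 CPM (28.7 to 58.6, 5 libraries) in COP cluster 6, led by Bmp4 and Neu4, and at 2.20 ± 3.53 CPM (0 to 8.35, 5 libraries) in COP cluster 16, led by Tmem2 and Cnksr3. It was lower in each of these steps, and the OPC and COP clusters did not overlap. Pcdh9 ran the other way between the COP clusters, at 124 CPM (101 to 144, 5 libraries) in cluster 6 and 453 CPM (334 to 534, 5 libraries) in cluster 16. OLIGO cluster 0 is led by Klk6 and cluster 18 by Il23a and Alox5. Pcdh7 was at 11.8 ± 2.78 CPM (8.33 to 14.3, 5 libraries) in cluster 0 and 209 ± 19.5 CPM (190.2 to 239.8, 5 libraries) in cluster 18, and Pcdh17 at 48.8 ± 22.6 CPM (28.6 to 85.9, 5 libraries) and 824 ± 307 CPM (624 to 1369, 5 libraries), with no overlap for either gene. Pcdh15 showed the opposite, at 14.5 ± 4.78 CPM (9.41 to 21.5, 5 libraries) in cluster 0 and 0.130 ± 0.290 CPM (0 to 0.648, 5 libraries) in cluster 18. COP cluster 16 had Pcdh17 at 816 ± 313 CPM (507 to 1295, 5 libraries). Cluster 12, which holds 31.7% of the OLIGO cells of WT hippocampus replicate 2, had Pcdh17 at 1584 CPM in that library and 169 CPM in WT hippocampus replicate 3, the only other with enough cells.

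The genotype comparison asked whether member levels differed between null and WT cells of the same class and region. No member was called in any of the 10 genotype comparisons, and the numbers of genes called overall were also 0. In cortical NGFC and OPC cells the null arm was 1 library, so a count of 0 is not read as a result there and no p is given. In the others few libraries limit what can be called, and Grin1 itself did not pass. By edgeR at p under 0.05 unadjusted there were 2 members in PVALB cortex (Pcdh15 and Pcdh8), 1 in SST hippocampus (Pcdh15) and 0 in the others, beside 363 of 9717 and 489 of 12849 genes at that level in these comparisons, and DESeq2 called 0 members in each comparison. With the replicate number as a block the number of genes called was 4 in PVALB cortex, 13 in OPC hippocampus and 2 and 3 in OLIGO cortex and hippocampus. It was 0 in SST cortex and in SST, PVALB and NGFC hippocampus, and 0 non-clustered protocadherins were among the genes called. The share of genes called was 0.00% of 12849 genes in SST cortex, 0.00% in SST hippocampus, 0.00% of 9717 in PVALB cortex, 0.00% in PVALB hippocampus, 0.00% of 9753 in NGFC cortex, 0.00% in NGFC hippocampus, 0.00% of 7339 in OPC cortex, 0.00% in OPC hippocampus, 0.00% of 10637 in OLIGO cortex and 0.00% in OLIGO hippocampus.

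**Figure D3:**
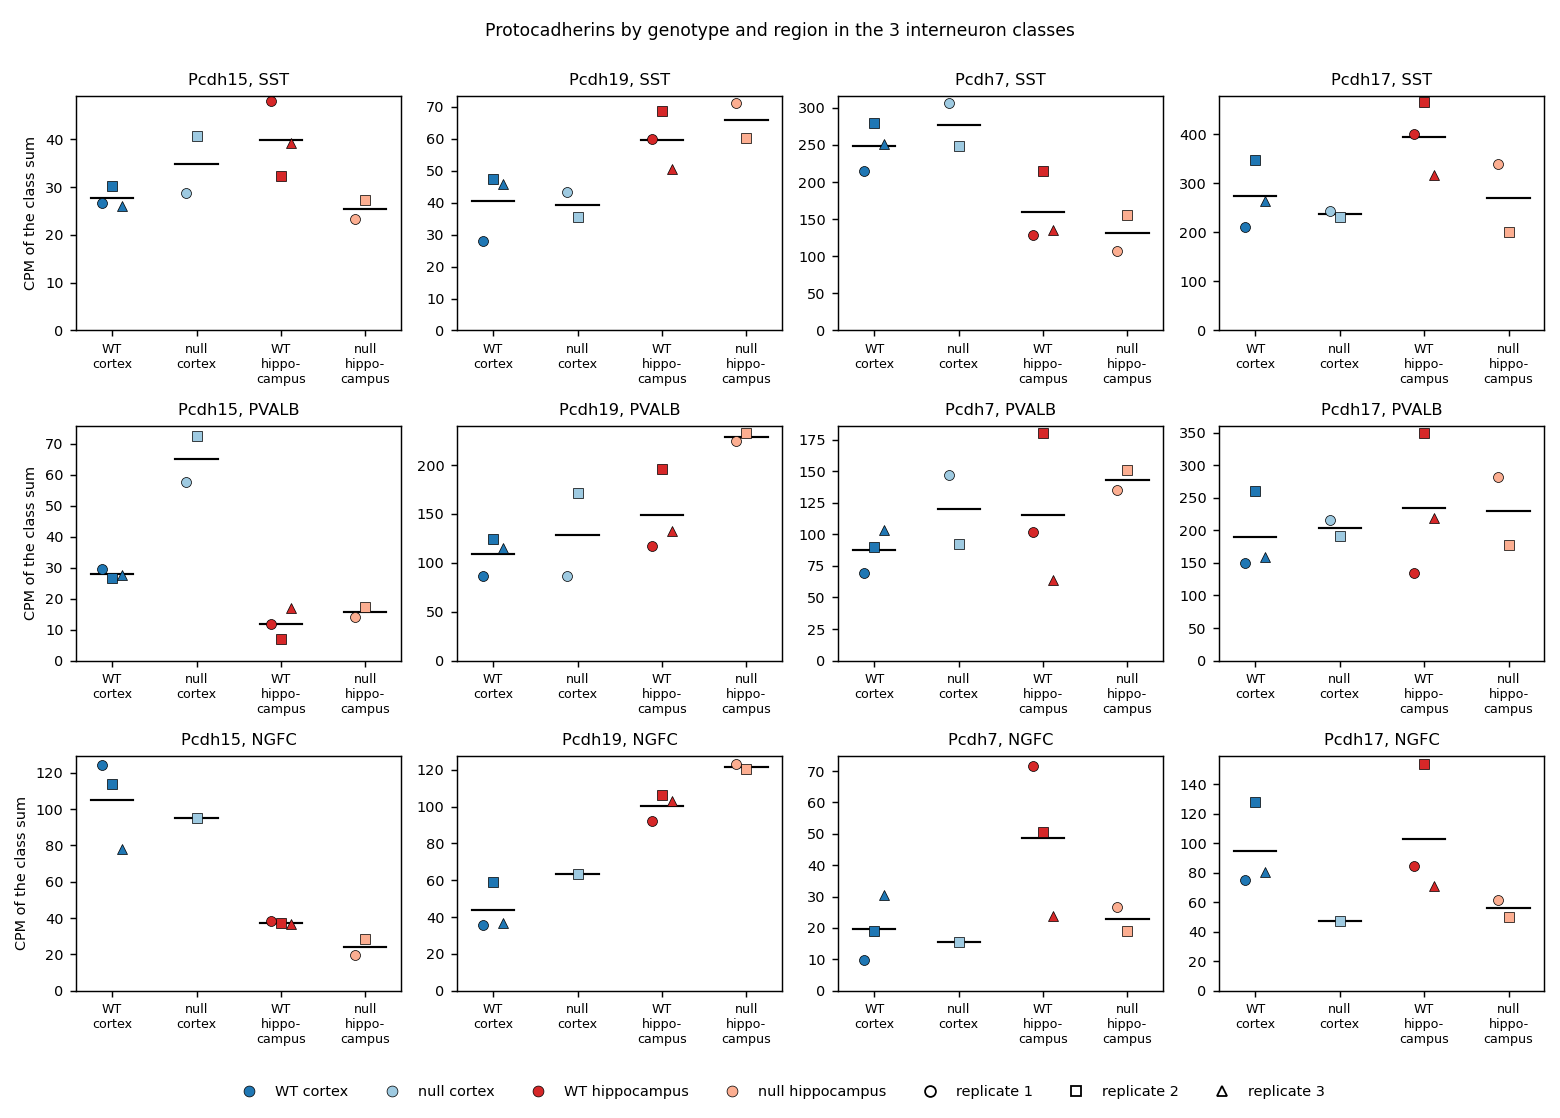
Level in CPM (y axis) of Pcdh15, Pcdh19, Pcdh7 and Pcdh17 in SST, PVALB and NGFC cells by region and genotype (x axis), with 1 point per library. Pcdh15 in PVALB cells is at 57.5 and 72.5 CPM in null cortex, above the WT cortical libraries at 29.5, 26.7 and 27.6 CPM. The genotypes are also apart for Pcdh15 in hippocampal SST and NGFC cells and for Pcdh19 in hippocampal PVALB cells. The same holds for Pcdh17 and Pcdh19 in NGFC cells of each region, with 1 null library in cortex.

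In cortical SST cells the null and WT libraries overlapped for all 10 members. Of the 10 members tested, 4 had a higher and 6 a lower fitted level in null, with a median log2 change of -0.03 beside -0.00 over all genes. No member had non-overlapping libraries, against 7.04% of all genes with null above WT and 9.005% with null below. Pcdh7 was at 307 and 248 CPM in null and 214, 279 and 252 CPM in WT, and Pcdh17 at 244 and 231 CPM in null and 211, 348 and 263 CPM in WT. Pcdh15 was at 28.9 and 40.7 CPM in null and 26.8, 30.3 and 26.04 CPM in WT (edgeR log2 change 0.39 ± 0.25 SE, adjusted p = 1.0). In each case a null library lay within the WT range. Over the 5 cortical libraries of both genotypes the other members were at 19.1 to 45.5 CPM for Pcdh1, 23.1 to 65.8 CPM for Pcdh8, 165 to 216 CPM for Pcdh9, 114 to 249 CPM for Pcdh10, 25.2 to 65.5 CPM for Pcdh18, 28.1 to 47.3 CPM for Pcdh19 and 4.44 to 8.53 CPM for Pcdh20.

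In hippocampal SST cells 9 of 10 members had a lower fitted level in null, with a median log2 change of -0.27 beside -0.04 over all genes. Only Pcdh15 was apart, with null below WT, against 8.65% of all genes in that direction and 8.81% in the other. Pcdh15 was at 23.3 and 27.4 CPM in the null libraries and 47.9, 32.3 and 39.2 CPM in WT. Both null libraries lay below all 3 WT libraries, so the groups did not overlap. The change did not pass the adjusted threshold (edgeR log2 change -0.62 ± 0.26 SE, adjusted p = 0.959), and it was -1.01 and -0.23 within replicates 1 and 2 and -0.72 to -0.47 with any 1 library left out. Its cortical change was 0.39, and the test of the difference between regions gave an edgeR log2 value of -1.01 ± 0.37 SE, adjusted p = 1.0. The lower levels of other members moved with the shallow library: without it 4 members were higher and 6 lower, with a median of -0.08. Without WT hippocampus replicate 2 the log2 change was 0.04 for Pcdh7 (-0.26 with it), 0.05 for Pcdh18 (-0.27), 0.03 for Pcdh8 (-0.03), -0.06 for Pcdh9 (-0.30) and -0.21 for Pcdh10 (-0.46). Pcdh17 was at 339.98 and 201 CPM in null and 399.9, 466 and 316 CPM in WT, Pcdh7 at 107 and 156 CPM in null and 129, 215 and 135 CPM in WT, and Pcdh19 at 71.4 and 60.3 CPM in null and 60.1, 68.6 and 50.5 CPM in WT, all with overlap. Over these 5 libraries Pcdh9 was at 166 to 272 CPM, Pcdh10 at 120.3 to 284 CPM, Pcdh18 at 18.97 to 40.3 CPM, Pcdh8 at 28.9 to 74.6 CPM, Pcdh1 at 32.9 to 47.8 CPM and Pcdh20 at 3.21 to 6.04 CPM.

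In cortical PVALB cells Pcdh15 was higher in null without overlap, and the share of cluster 31 in the class was higher there too. Pcdh15 was at 57.5 and 72.5 CPM in the null libraries and 29.5, 26.7 and 27.6 CPM in WT. Both null libraries lay above all 3 WT libraries, which were tightly grouped. The change did not pass the adjusted threshold (edgeR log2 change 1.26 ± 0.30 SE, adjusted p = 0.206, higher in 2 of 2 null libraries), nor by DESeq2 (log2 change 1.26, adjusted p = 0.487). It was 0.94 and 1.41 within replicates 1 and 2, 1.10 to 1.35 with any 1 library left out, and 1.27 (edgeR adjusted p = 0.0811) without WT hippocampus replicate 2. Cluster 31, in which Pcdh15 is high, made up 22.2 and 23.7% of null cortical PVALB cells (6 of 27 and 57 of 241) and 7.30, 1.79 and 2.87% of WT ones (10 of 137, 9 of 504 and 18 of 628). With cluster 31 left out, a step chosen after seeing the data, Pcdh15 was at 14.3 and 17.4 CPM in null and 13.7, 19.6 and 15.3 CPM in WT, and the log2 change was 0.02. The remaining PVALB cells overlapped between genotypes. Whether the share of cluster 31 differed by genotype, and whether it caused the Pcdh15 difference, was not tested here.

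**Figure D4:**
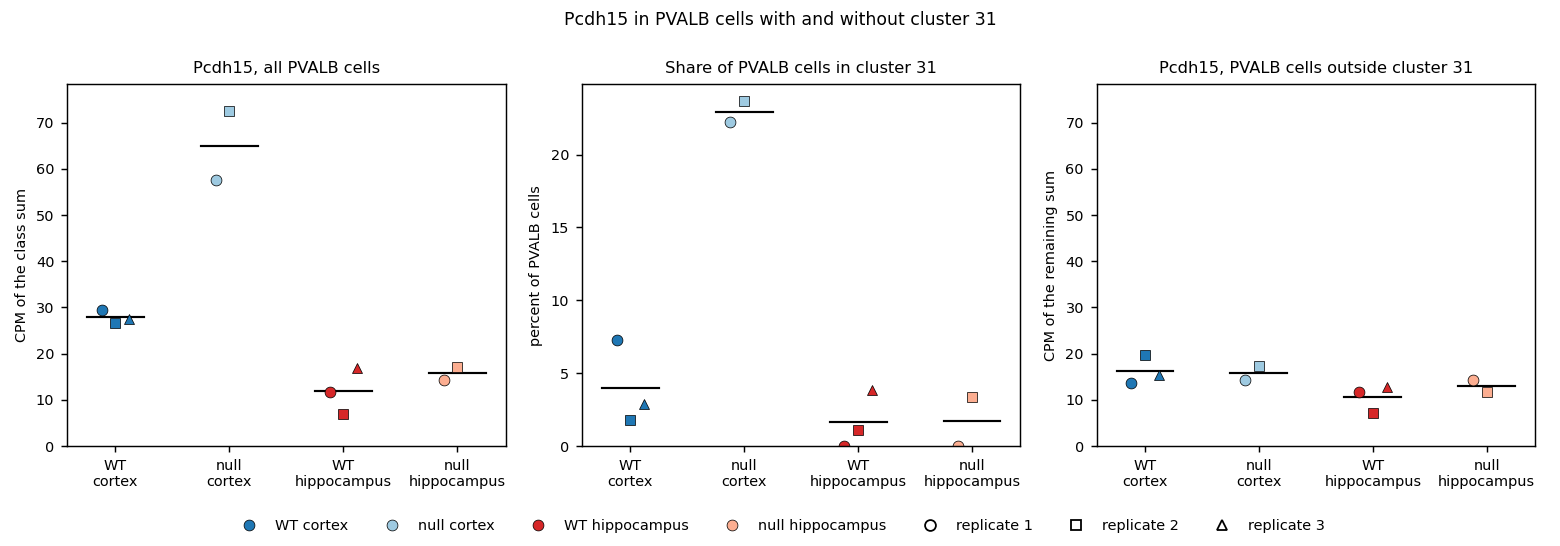
Pcdh15 in PVALB cells of each library, in CPM for the whole class and with cluster 31 left out, beside the percent of PVALB cells in cluster 31. The null cortical libraries hold 22.2 and 23.7% of their PVALB cells in that cluster, against 7.30, 1.79 and 2.87% in WT cortex, and their Pcdh15 level without it is 14.3 and 17.4 CPM.

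Of the 8 members tested in cortical PVALB cells, 6 had a higher and 2 a lower fitted level in null, with a median log2 change of 0.23 beside -0.01 over all genes. Pcdh15 alone did not overlap (1 of 8 higher, 0 of 8 lower), against 9.57% of all genes higher and 10.5% lower. Pcdh8 was at 43.1 and 170.2 CPM in null and 64.5, 80.9 and 40.97 CPM in WT, with null replicate 1 inside the WT range and null replicate 2 far above it (edgeR log2 change 0.92 ± 0.43 SE, adjusted p = 1.0, higher in 1 of 2 null libraries). Its change was -0.57 and 1.06 within replicates 1 and 2, 1.44 without null cortex replicate 1 and -0.46 without null cortex replicate 2, so the direction rested on the latter. Cluster 25, in which Pcdh8 and Pcdh19 are high, made up 7.41 and 31.1% of null and 10.9, 13.7 and 4.94% of WT cortical PVALB cells, and its part in these values was not tested. Without cluster 31, where Pcdh8 is also above cluster 1, Pcdh8 was at 23.8 and 151 CPM in null and 56.8, 81.6 and 38.5 CPM in WT. Pcdh19 was at 86.2 and 171 CPM in null and 86.6, 124 and 116 CPM in WT. The other members, over these 5 libraries, were at 69.1 to 147 CPM for Pcdh7, 174 to 247 CPM for Pcdh9, 115 to 227 CPM for Pcdh10, 149 to 259.9 CPM for Pcdh17 and 6.45 to 25.2 CPM for Pcdh1. Pcdh19 and these 5 overlapped.

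In hippocampal PVALB cells only Pcdh19 did not overlap, with null above WT. It was at 225 and 233 CPM in null and 117, 196 and 133 CPM in WT, where WT replicate 2 came closest to the null libraries. The change did not pass the adjusted threshold (edgeR log2 change 0.61 ± 0.32 SE, adjusted p = 0.999, higher in 2 of 2 null libraries), and was 0.94 and 0.25 within replicates 1 and 2 and 0.88 without WT hippocampus replicate 2. In cortex the change was 0.30, and the interaction had an edgeR log2 value of 0.31 ± 0.46 SE, adjusted p = 1.0. Cluster 25 made up 22.6 and 35.7% of null and 28.8, 43.6 and 14.1% of WT hippocampal PVALB cells, and its part was not tested. Among all genes 7.87% were higher without overlap and 6.29% lower, and among the 8 members 1 was higher and 0 lower. Here 5 members had a higher and 3 a lower fitted level, with a median log2 change of 0.07 beside -0.01 over all genes. Pcdh15 was at 14.2 and 17.2 CPM in null and 11.7, 6.93 and 16.9 CPM in WT (0.38 on the log2 scale), and its interaction was -0.88 (edgeR adjusted p = 1.0). Without WT hippocampus replicate 2 the change was -0.08 for Pcdh1 (-0.61 with it), 0.85 for Pcdh7 (0.30), 0.16 for Pcdh9 (-0.00) and 0.35 for Pcdh17 (-0.06), and the median over the members 0.25, with 7 higher and 1 lower.

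Neurogliaform-like cells of the null hippocampus had less Pcdh10, Pcdh15 and Pcdh17 and more Pcdh19 than WT in every library, and none of these passed the adjusted threshold. Pcdh17 was at 61.6 and 50.3 CPM in null and 84.6, 154 and 71.2 CPM in WT (edgeR log2 change -0.90 ± 0.42 SE, adjusted p = 0.959), and the change was -0.46 without WT hippocampus replicate 2. Pcdh15 was at 19.6 and 28.4 CPM in null and 38.4, 37.3 and 36.9 CPM in WT (edgeR log2 change -0.60 ± 0.35 SE, adjusted p = 0.959), and -0.57 without that library. The WT Pcdh15 levels were nearly equal, and both null libraries lay below them. Pcdh10 was at 112 and 162 CPM in null and 184, 305 and 169 CPM in WT (edgeR log2 change -0.68 ± 0.38 SE, adjusted p = 0.959, and -0.34 without WT hippocampus replicate 2), and Pcdh19 at 123 and 120.3 CPM in null and 92.2, 106 and 103 CPM in WT (edgeR log2 change 0.27 ± 0.31 SE, adjusted p = 0.959). Within replicates 1 and 2 the log2 differences were -0.45 and -1.60 for Pcdh17, -0.94 and -0.38 for Pcdh15, -0.71 and -0.91 for Pcdh10 and 0.41 and 0.18 for Pcdh19. Pcdh7 (-1.40 and -1.35), Pcdh9 (-0.51 and -1.05) and Pcdh1 (-0.17 and -0.47) were lower within both replicates too, with libraries that overlapped. Pcdh8, Pcdh18 and Pcdh20 differed in sign between the replicates. Of 9 members tested, 7 had a lower fitted level in null (median log2 change -0.60, and -0.06 over all genes), with 3 lower and 1 higher without overlap against 8.69% and 10.2% of all genes, and the median was -0.42 without WT hippocampus replicate 2. Cluster 17 held nearly all NGFC cells of WT hippocampus replicate 2, and cluster 2 those of most other libraries.

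In cortical NGFC cells the null arm had 1 library of at least 10 cells, replicate 2 with 98 cells, and the spread was pooled over the other groups. This library was below the WT range for Pcdh9 (107 CPM against 137, 126 and 146) and Pcdh17 (47.1 against 75.1, 128 and 80.8 CPM) and above it for Pcdh19 (63.4 against 35.9, 59.3 and 36.6 CPM). Pcdh17 had the largest change of these (log2 change -1.02, and -1.42 within replicate 2). With 1 library a value outside 3 others is common: 21.2% of all genes were above and 19.3% below, against 1 and 2 of 9 members. Pcdh15 at 95.1 CPM lay within its WT range of 124, 114 and 77.8 CPM, as did Pcdh10 and Pcdh7. The fitted level was higher in null for 4 and lower for 5 members, with a median log2 change of -0.15 beside -0.03 over all genes.

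In precursor-like cells most members had lower fitted levels in null, on few cells and with no call. The cortical null arm was again 1 library, replicate 2 with 57 cells, and it lay below all WT libraries for Pcdh7, Pcdh8, Pcdh9, Pcdh15 and Pcdh17. Pcdh7 was at 61.8 CPM in it and 137, 149.6 and 151 CPM in WT (log2 change -1.23), and the change was -0.37 where cells were classed by markers alone. Pcdh9 was at 162 CPM against 366, 286 and 379 in WT (log2 change -1.06), and Pcdh17 at 124 CPM against 198, 313 and 367 (log2 change -1.26). Pcdh15, whose highest WT class this is, was at 252 CPM against 381, 367 and 434 (log2 change -0.63). Within replicate 2 the log2 differences were -1.26 for Pcdh7, -0.49 for Pcdh8, -0.82 for Pcdh9, -0.54 for Pcdh15 and -1.33 for Pcdh17. The 5 of 8 members below the WT range, and 0 above it, stand beside 20.1% and 22.7% of all genes, and the median log2 change was -0.78 over the members and -0.01 over all genes. Fitted levels were lower for 7 of 8 members, and for 8 of 8 under DESeq2 and under library size scaling, where Pcdh20 turned sign around 0.

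In the hippocampus Pcdh7 was at 63.3 and 94.9 CPM in the null OPC sums of 21 and 70 cells and 134, 201 and 125 CPM in WT (edgeR log2 change -0.97 ± 0.49 SE, adjusted p = 1.0), a difference of -1.07 and -1.07 within replicates 1 and 2. Pcdh10 was at 143 and 126 CPM in null and 146, 363 and 181 CPM in WT, a change of -0.92 with WT hippocampus replicate 2 and -0.40 without it, and of -0.04 and -1.51 within replicates 1 and 2. The 8 OLIGO markers were apart in these sums too, at 95.02 and 138 CPM in null and 863, 422 and 154 CPM in WT, and their part was not tested. Both members were lower in the null libraries without overlap, and Pcdh19 was higher, at 47.5 and 34.5 CPM against 28.5, 10.4 and 18.7 (log2 change 0.95, and 0.72 and 1.63 within replicates 1 and 2). Pcdh15 was at 301 and 216 CPM in null and 403, 386 and 269 CPM in WT, and the groups overlapped. Pcdh17 was at 174 and 221 CPM in null and 183, 610.3 and 153 CPM in WT, and its log2 change of -0.78 turned to 0.21 without WT hippocampus replicate 2. The median over 8 members was -0.51 beside -0.09 over all genes, and -0.27 without that library. Without overlap 2 members were lower and 1 higher, against 9.40% and 9.22% of all genes.

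In mature oligodendrocyte-like cells all 8 members tested had lower fitted levels in null in both regions by edgeR (7 of 8 in cortex by DESeq2, with Pcdh8 at 0.11 against -0.22), with medians of -0.62 in cortex and -0.54 in hippocampus beside -0.07 and -0.05 over all genes, and none was called. The 8 OLIGO markers were at 27328 and 26126 CPM in null and 29694, 17735 and 21897 CPM in WT cortex, and in hippocampus at 32477 and 27892 CPM in null and 26668, 12409.6 and 26224 CPM in WT, where null was higher without overlap, and whether the make-up of the sums moved the members was not tested. Pcdh9, the member with its highest level here, was at 816 and 817 CPM in null and 864, 1339.9 and 1304 CPM in WT cortex (edgeR log2 change -0.56 ± 0.33 SE, adjusted p = 1.0), and at 927 and 959.6 CPM in null and 1117, 1425 and 1149 CPM in WT hippocampus (edgeR log2 change -0.36 ± 0.33 SE, adjusted p = 1.0). Null libraries lay below WT in both regions, in cortex by a small margin from WT replicate 1. Within replicates 1 and 2 the difference was -0.08 and -0.71 in cortex and -0.27 and -0.57 in hippocampus, where it was -0.23 without WT replicate 2. Pcdh15 was at 0 and 6.04 CPM in null and 12.9, 11.2 and 10.8 CPM in WT cortex (edgeR log2 change -1.07 ± 0.53 SE, adjusted p = 1.0), and Pcdh1 at 0 and 6.17 CPM in null and 8.61, 11.2 and 14.2 CPM in WT cortex (edgeR log2 change -0.997 ± 0.56 SE, adjusted p = 1.0). For both genes null cortex replicate 1, a sum of 18 cells, held no UMI, which allows up to 30.4 CPM of either (95% Poisson interval). Without null cortex replicate 2 the fitted changes of -8.61 and -8.57 rest on these counts of 0 and on the prior count, and are no bound. In hippocampus Pcdh8 was at 5.05 and 7.46 CPM in null and 13.9, 8.30 and 14.4 CPM in WT (edgeR log2 change -0.90 ± 0.57 SE, adjusted p = 1.0), and the difference was -1.30 and -0.14 within replicates 1 and 2. In cortex 3 members were lower without overlap and 0 higher, against 9.40% and 6.78% of all genes, and in hippocampus 2 were lower and 0 higher, against 6.14% and 7.57%. The other hippocampal values moved with the shallow library: without WT hippocampus replicate 2 the change was 0.38 for Pcdh17 (-0.71 with it), 0.21 for Pcdh7 (-0.27) and -0.05 for Pcdh10 (-0.57), with 2 members higher and 6 lower and a median of -0.20.

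Whether the genotype change differed between regions was asked in the 3 interneuron classes. In NGFC the null cortical arm was 1 library, so only effect sizes are given for that class. In SST and PVALB no member was called, with 0.00% and 0.00% of all genes called. At p under 0.05 unadjusted edgeR gave 1 member in SST (Pcdh15) and 0 in PVALB, beside 64 of 12849 and 113 of 9717 genes. DESeq2 called 0 in each. The hippocampal change was the lower of the 2 for 8 of 10 members in SST, 5 of 8 in PVALB and 8 of 9 in NGFC, with medians of -0.31, -0.13 and -0.24 beside -0.03, 0.00 and 0.01 over all genes, and by DESeq2 for 9, 5 and 7. Without WT hippocampus replicate 2 it was the lower for 7, 3 and 6, with medians of -0.08, 0.23 and -0.14. These comparisons share the WT and null libraries of the genotype tests.

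The regional comparison asked how member levels in WT cells differed between hippocampus and cortex. Pcdh15 was lower in hippocampal than in cortical NGFC and PVALB cells and higher in hippocampal SST cells, Pcdh19 was higher in hippocampal NGFC cells, and Pcdh9 was higher in hippocampal PVALB cells, each without overlap between 3 and 3 libraries. No member was called. By edgeR at p under 0.05 unadjusted there were 1 member in SST (Pcdh7), 3 in PVALB (Pcdh8, Pcdh9 and Pcdh15), 5 in NGFC (Pcdh7, Pcdh9, Pcdh10, Pcdh15 and Pcdh19), 0 in OPC and 1 in OLIGO (Pcdh8), and DESeq2 called 0. Of all genes 886 of 11981 were at that level in SST, 378 of 8810 in PVALB, 205 of 7878 in NGFC, 232 of 4740 in OPC and 255 of 9846 in OLIGO. Genes called were 0.0417% of 11981 in SST, 0.0454% of 8810 in PVALB, 0.00% of 7878 in NGFC, 0.00% of 4740 in OPC and 0.00% of 9846 in OLIGO. The numbers pair the libraries across regions, and when replicate was added to the fit as a block, the number of genes called went from 5 to 321 in SST, from 4 to 57 in PVALB and from 0 to 8, 51 and 54 in NGFC, OPC and OLIGO, with 0 protocadherins of the 10 among them. Under that block 3 members were at an adjusted p between 0.01 and 0.05: Pcdh15 in NGFC (log2 change -1.39, edgeR adjusted p = 0.0366, lower in 3 of 3 pairs), Pcdh7 in SST (-0.73, 0.0353, lower in 3 of 3) and Pcdh8 in OLIGO (1.63, 0.0256, higher in 3 of 3).

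In NGFC cells Pcdh15 was at 38.4, 37.3 and 36.9 CPM in the hippocampal and 124, 114 and 77.8 CPM in the cortical libraries. All 3 hippocampal libraries were near each other and well below the cortical ones (edgeR log2 change -1.44 ± 0.32 SE, adjusted p = 0.747). The difference was -1.67, -1.58 and -1.06 within replicates 1, 2 and 3, -1.62 to -1.28 with any 1 library left out, and -1.47 (edgeR adjusted p = 0.390) without WT hippocampus replicate 2. In cluster 2 Pcdh15 was at 122, 116 and 76.8 CPM in WT cortex and 38.1 and 35.9 CPM in the WT hippocampal libraries with enough cells, replicates 1 and 3. That cluster held 98, 93.7 and 94.3% of the NGFC cells of these cortical libraries and 97.2 and 90.3% of these hippocampal ones. It is thus nearly the whole class, and its values are no separate check. Null NGFC cells had 95.1 CPM in the 1 cortical and 19.6 and 28.4 CPM in the hippocampal libraries, in the same direction.

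Pcdh19 ran the other way in NGFC cells, at 92.2, 106 and 103 CPM in hippocampus and 35.9, 59.3 and 36.6 CPM in cortex. Every hippocampal library was above every cortical one (edgeR log2 change 1.24 ± 0.32 SE, adjusted p = 1.0), by 1.34, 0.83 and 1.47 within replicates 1, 2 and 3 and by 1.16 without WT hippocampus replicate 2. In cluster 2, nearly the whole class in the libraries with enough cells of it, Pcdh19 was at 93.3 and 103 CPM in hippocampus and 33.8, 60.6 and 28.8 CPM in cortex. Pcdh10 was at 184, 305 and 169 CPM in hippocampus and 97.98, 164 and 129.6 CPM in cortex without overlap (edgeR log2 change 0.81 ± 0.35 SE, adjusted p = 1.0), by 0.91, 0.90 and 0.38 within replicates and 0.44 without WT hippocampus replicate 2. Pcdh7 at 71.7, 50.4 and 23.7 CPM in hippocampus and 9.80, 18.98 and 30.5 CPM in cortex overlapped (edgeR log2 change 1.22 ± 0.53 SE, adjusted p = 1.0), with differences of 2.75, 1.36 and -0.35 within replicates and -0.28 where cells were classed by markers alone. Pcdh9 at 318, 257 and 141 CPM in hippocampus and 137, 126 and 146 CPM in cortex overlapped too (edgeR log2 change 0.85 ± 0.36 SE, adjusted p = 1.0). Of 7 members tested 2 were higher and 1 lower without overlap, against 3.24% and 3.45% of all genes, and the median log2 change was 0.81 beside 0.02, or 0.44 without WT hippocampus replicate 2.

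In PVALB cells Pcdh15 was at 11.7, 6.93 and 16.9 CPM in hippocampus and 29.5, 26.7 and 27.6 CPM in cortex, without overlap (edgeR log2 change -1.17 ± 0.36 SE, adjusted p = 0.663, lower in 3 of 3 hippocampal libraries). The difference was -1.27, -1.81 and -0.68 within replicates 1, 2 and 3, -0.90 without WT hippocampus replicate 2, -0.61 without cluster 31 and 0.03 where cells were classed by markers alone. Cluster 31 made up 7.30, 1.79 and 2.87% of cortical and 0, 1.12 and 3.85% of hippocampal WT PVALB cells. Pcdh9 was at 329.8, 388 and 269 CPM in hippocampus and 193, 247 and 189.6 CPM in cortex, with every hippocampal library above every cortical one (edgeR log2 change 0.66 ± 0.25 SE, adjusted p = 1.0). The difference was 0.77, 0.65 and 0.50 within replicates and 0.49 without WT hippocampus replicate 2.

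Oligodendrocyte markers moved with Pcdh9 across regions. In PVALB cells the 8 OLIGO markers summed to 263, 429.6 and 389.6 CPM in WT hippocampus and 56.2, 197 and 97.4 CPM in WT cortex, also without overlap. At the ratio of Pcdh9 to these markers in OLIGO cells of the same library, they would carry 10.998, 49.3 and 17.1 CPM of Pcdh9 in hippocampus and 1.64, 14.9 and 5.80 CPM in cortex. This estimate was chosen after seeing the data and assumes the profile of OLIGO cells, and what such RNA added to the Pcdh9 difference was not tested. Pcdh8 was at 128, 104 and 78.8 CPM in hippocampus and 64.5, 80.9 and 40.97 CPM in cortex, with WT cortex replicate 2 just above the lowest hippocampal library (edgeR log2 change 0.73 ± 0.32 SE, adjusted p = 1.0), and its cluster 25 made up 28.8, 43.6 and 14.1% of hippocampal and 10.9, 13.7 and 4.94% of cortical PVALB cells. Of 8 members 1 was higher and 1 lower without overlap, against 4.27% and 4.60% of all genes, and the median log2 change was 0.43 beside 0.02, or 0.04 without WT hippocampus replicate 2. The directions of Pcdh7 (0.40 with and -0.15 without WT hippocampus replicate 2) and Pcdh17 (0.33 and -0.09) rested on that library.

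In SST cells Pcdh15 and Pcdh19 were higher in hippocampus without overlap. Pcdh15 was at 47.9, 32.3 and 39.2 CPM in hippocampus and 26.8, 30.3 and 26.04 CPM in cortex (edgeR log2 change 0.47 ± 0.23 SE, adjusted p = 0.776, higher in 3 of 3), by 0.82, 0.09 and 0.57 within replicates. Pcdh19 was at 60.1, 68.6 and 50.5 CPM in hippocampus and 28.1, 47.3 and 45.8 CPM in cortex (edgeR log2 change 0.51 ± 0.27 SE, adjusted p = 0.849, higher in 3 of 3), by 1.07, 0.53 and 0.14 within replicates and 0.32 without WT cortex replicate 1. The margins between the groups were small for both. The 8 OLIGO markers were apart in these sums too, at 475, 459 and 248 CPM in hippocampus and 143, 173 and 82.9 CPM in cortex, and their part in the values was not tested. Pcdh7 was the member with p under 0.05, at 129, 215 and 135 CPM in hippocampus and 214, 279 and 252 CPM in cortex (edgeR log2 change -0.68 ± 0.28 SE, adjusted p = 0.596, lower in 3 of 3 pairs). WT hippocampus replicate 2 reached into the cortical range, and without it the change was -0.99 (edgeR adjusted p = 0.133) and the groups were apart. Pcdh18 was at 18.97, 40.3 and 28.3 CPM in hippocampus and 25.2, 61.3 and 43.3 CPM in cortex, a change of -0.61 with that library and -0.93 without it. Cluster 24, in which Pcdh18 is high, made up 0.342, 2.28 and 0.559% of hippocampal and 5.25, 11.3 and 3.63% of cortical WT SST cells, without overlap, and its part was not tested. The fitted changes of Pcdh9 (0.18 with and -0.07 without WT hippocampus replicate 2) and Pcdh10 (0.15 and -0.10) turned direction. These fits do not pair the libraries. Within replicates 1, 2 and 3 both genes were higher in hippocampus, by 0.22, 0.33 and 0.08 for Pcdh9 and 0.34, 0.19 and 0.09 for Pcdh10. Of the 10 members 2 were higher and 0 lower without overlap, against 7.81% and 4.91% of all genes, and the median log2 change was 0.21 beside 0.03, or 0.04 without WT hippocampus replicate 2.

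In OLIGO cells Pcdh8 and Pcdh15 were apart between regions. Pcdh8 was at 13.9, 8.30 and 14.4 CPM in hippocampal and 1.62, 3.60 and 6.09 CPM in cortical OLIGO sums, without overlap (edgeR log2 change 1.65 ± 0.47 SE, adjusted p = 1.0, higher in 3 of 3), by 2.51, 1.02 and 1.12 within replicates. Pcdh15 was at 7.44, 8.30 and 5.70 CPM in hippocampus and 12.9, 11.2 and 10.8 CPM in cortex, also without overlap (edgeR log2 change -0.71 ± 0.35 SE, adjusted p = 1.0), a difference of -0.72, -0.40 and -0.82 within replicates. Pcdh8 was thus higher and Pcdh15 lower in hippocampus. Pcdh17 in OLIGO had a log2 change of 1.19 with WT hippocampus replicate 2 and of 0.09 without it. Of 8 members tested in OLIGO 1 was higher and 1 lower without overlap, against 2.70% and 3.18% of all genes, with a median log2 change of 0.67 beside 0.03, or 0.09 without WT hippocampus replicate 2. In OPC 5 members were tested and none was apart between regions, against 3.14% of all genes higher and 8.35% lower, and their median was -0.01 beside 0.03. Scaling by library size moved the median of all genes by -0.176 in this comparison and that of the members to -0.20, and under DESeq2 Pcdh10 (0.03 against -0.01) and Pcdh15 (0.01 against -0.01) turned sign around 0. OPC Pcdh15 was at 403, 386 and 269 CPM in hippocampus and 381, 367 and 434 CPM in cortex, with overlap.

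The clustered protocadherins and a list of known partners were followed as counts. Of 45 clustered genes, 24 passed the filter on low counts in SST, 10 in PVALB, 9 in NGFC, 1 in OPC and 9 in OLIGO, and edgeR and DESeq2 called 0 in each comparison. At p under 0.05 unadjusted edgeR gave 1 in SST cortex, 1 in PVALB cortex, 1 in PVALB hippocampus and 2 between regions in SST, beside 274, 363, 284 and 886 of all genes tested. Fitted levels were higher in null for 15 of 24 in SST cortex, 10 of 24 in SST hippocampus, 9 of 10 in PVALB cortex and 4 of 10 in PVALB hippocampus, 4 of 9 and 3 of 9 in NGFC, 1 of 1 and 1 of 1 in OPC, and 2 of 9 and 1 of 9 in OLIGO, cortex first. They were higher in hippocampus than in cortex for 17 of 20 in WT SST cells. The median log2 changes were 0.13 in cortex and -0.06 in hippocampus in SST, and -0.52 and -0.21 in OLIGO. Genes of the alpha and of the gamma array share their last exons, so 3′ counts of them may not be told apart.

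The partner list held the WAVE complex, Ppp1ca and Set of Pcdh7, Taok2 and Cdh2 of Pcdh8 and Pcdh19, and the tip-link genes Cdh23, Lhfpl5, Tmie, Ush1c and Myo7a of Pcdh15. Of these 20 genes 16 were tested in SST, 14 in PVALB, 13 in NGFC, 14 in OPC and 13 in OLIGO. EdgeR and DESeq2 called 0, and at p under 0.05 unadjusted edgeR gave 1 in SST hippocampus, 2 in PVALB hippocampus, 1 in NGFC hippocampus and 1 in OPC hippocampus, and 1 between regions in SST and 2 in PVALB. Of all genes tested 489, 284, 307 and 177 were at that level in these genotype comparisons, and 886 and 378 between regions. Fitted levels were higher in null for 6 of 16 in SST cortex, 4 of 16 in SST hippocampus, 9 of 14 in PVALB cortex, 3 of 14 in PVALB hippocampus, 5 of 13 and 4 of 13 in NGFC, 3 of 14 and 3 of 14 in OPC, and 4 of 13 and 3 of 13 in OLIGO, cortex first. The partners with the largest fitted changes were in OPC. Wasf3 had no UMI in the null hippocampal libraries, which allows up to 58.4 and 10.6 CPM (95% Poisson interval, as for Pcdh12), and was at 8.14 to 54.8 CPM in WT (edgeR adjusted p = 0.99996), and Tmie was at 4.75 CPM in the null cortical library and 20.4 to 61.02 CPM in WT (log2 change -2.64). Pcdh11x did not overlap in hippocampal PVALB cells, with null above WT at 49.7 and 45.9 CPM against 14.6, 24.3 and 41.7, or between regions in WT SST cells, at 53.2, 60.2 and 35.4 CPM in hippocampus and 69.8, 73.4 and 67.04 CPM in cortex. It was also higher in null OLIGO cells of the hippocampus, where all 8 members tested were lower, at 50.5 and 45.3 CPM against 34.7, 40.1 and 25. In the 1 null library of cortical OPC cells it was lower, at 209 CPM against 336, 218 and 243. None of these passed the adjusted threshold (edgeR log2 change 0.71, -0.55, 0.54 and -0.29 in that order). Pcdh12 had too few counts to test.

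The members lie on several chromosomes of the mm10 build (GENCODE vM21 annotation, all protein-coding). On the plus strand are Pcdh7 (ENSMUSG00000029108) at chr5:57717967-58133230, Pcdh10 (ENSMUSG00000049100) at chr3:45378398-45435623, Pcdh17 (ENSMUSG00000035566) at chr14:84443563-84539002 and Pcdh15 (ENSMUSG00000052613) at chr10:73099342-74649737. On the minus strand are Pcdh1 (ENSMUSG00000051375) at chr18:38185914-38212053, Pcdh9 (ENSMUSG00000055421) at chr14:93013410-93890679, Pcdh8 (ENSMUSG00000036422) at chr14:79766775-79771312, Pcdh18 (ENSMUSG00000037892) at chr3:49743296-49757325, Pcdh20 (ENSMUSG00000050505) at chr14:88464743-88471396 and Pcdh19 (ENSMUSG00000051323) at chrX:133582860-133688987. Pcdh8, Pcdh9, Pcdh17 and Pcdh20 thus share chromosome 14, and Pcdh10 and Pcdh18 chromosome 3. Same-strand gene models lie inside Pcdh7 (14), Pcdh9 (4) and Pcdh15 (3), and Gm2136 lies within 4 kb of Pcdh10, so counts near those models may be shared between them.

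The genes most like each member were found by the Pearson correlation of log2(CPM + 1) over 34 pooled levels of class, region and genotype, among 8610 genes other than protocadherins. These points share libraries and depth, and the values are a description. For Pcdh15 they were Scn3a (0.89) and Sorcs3 (0.86), for Pcdh9 Syt11 (0.95) and Dact3 (0.91), for Pcdh7 Cadm2 (0.86) and for Pcdh1 9330159F19Rik (0.87) and Bai1 (0.86). Among the δ2 members they were Cadps (0.94) and Gria1 (0.92) for Pcdh8, Mdga2 (0.95) and Lrrc4b (0.95) for Pcdh10, Syt11 (0.80) and Clcn6 (0.79) for Pcdh17, Reln (0.78) and Mboat7 (0.77) for Pcdh18 and Gucy1b3 (0.92) and Nudt19 (0.92) for Pcdh19. Pcdh20 was most like Sap30l (0.84) and Kcnip3 (0.82). Syt11 was thus named for both Pcdh9 and Pcdh17.

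Since activity-dependent transcription was a question of the study, the 250 bases upstream of each start were searched on both strands for the CRE motif TGACGTCA, its shorter form TGACG, which is also part of it, and the E-boxes CACGTG and CAGATG. RefSeq promoters were matched for 9 of the 10 members (10 entries), and Pcdh1 is named only. The Pcdh15 window, chr10:73821617-73821866, lies inside the gene span given above, so its result is for an internal start. TGACG was present in Pcdh10, at 2 places, and in Pcdh9, at 1 place in the reverse direction (as CGTCA), against 17.77% of 32851 promoters. TGACGTCA, CACGTG and CAGATG had no match in any member, against 1.546%, 6.021% and 14.44% of all promoters. A match describes letters in this window and shows no binding. The matching windows are printed 5′ to 3′ on the gene's strand (RefSeq, GRCm38.p6) to show where the motif lies, with its letters in capitals: Pcdh10 at chr3:45378148-45378397 on the plus strand, and Pcdh9 at chr14:93890680-93890929 on the minus strand.
Pcdh10: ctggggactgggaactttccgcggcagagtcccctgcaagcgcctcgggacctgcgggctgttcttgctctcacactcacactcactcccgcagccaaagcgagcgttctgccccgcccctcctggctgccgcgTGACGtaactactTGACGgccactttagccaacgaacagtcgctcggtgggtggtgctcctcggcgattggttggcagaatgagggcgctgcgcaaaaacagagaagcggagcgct
Pcdh9: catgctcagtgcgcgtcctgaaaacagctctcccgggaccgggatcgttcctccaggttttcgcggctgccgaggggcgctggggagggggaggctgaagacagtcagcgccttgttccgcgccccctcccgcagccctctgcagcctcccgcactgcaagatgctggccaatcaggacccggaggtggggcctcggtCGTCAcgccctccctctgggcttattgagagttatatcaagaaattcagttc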

How the data were processed

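The authors deposited UMI counts per gene and cell for 4 samples, one for each region and genotype, with 43348 features and 26987 barcodes. Their methods and processing notes name Cell Ranger 2.1.1 (the matrix headers name 3.0.2) and mm10, with gene ends lengthened so that counts past the annotated 3′ end are included. CPM were computed here from these deposited counts. The suffix of each cell barcode gave its library and was read as the replicate number of the study's methods. A cell was kept with between 200 and 6000 genes and less than 30% of its UMIs from the 37 mitochondrial genes, which left 26201. Cells over the mitochondrial limit numbered 3 and 287 in the null cortical and 3 and 265 in the null hippocampal libraries. In WT they numbered 0, 2 and 4 in cortex and 0, 1 and 4 in hippocampus. Doublets marked by Scrublet (scanpy 1.11.5, expected rate 0.06) numbered 249 and were left in, their removal being an alternative. The 4 deposited matrices were integrated with each other and clustered with Seurat 5.3.0 (2000 variable features without protocadherins, 25 dimensions, resolution 1, 35 clusters, or 27 at resolution 0.6). Libraries within a matrix, which differ in chemistry, were not integrated with each other. A cluster was named where at least 3 markers of a class were above 20 CPM and above their mean over clusters, by its markers among its top 10 genes and its mean marker level, and interneuron names also needed Gad1 or Gad2 with Lhx6. Clusters 21, 30 and 34 stayed unnamed for low UMIs (0.106, 0.222 and 0.102 relative to their libraries) and no marker among their top 10 genes. Clusters 8 and 22, at 0.54 and 0.488, also had no marker of their class there and were named. Cluster 26 (385 cells, Sst at 22744.8 CPM) stayed unnamed, since at least 2 cholinergic markers were detected and their score was above that of SST. The naming rule was revised after its first outcome was seen. Unnamed clusters held 6.85% of WT cortical, 2.53% of WT hippocampal, 4.07% of null cortical and 3.32% of null hippocampal cells and were not used. Class names were rebuilt here and may differ from the study's. Sums of counts per library and class were tested with edgeR 4.0.16 (quasi-likelihood, TMM, filterByExpr, Benjamini and Hochberg over all genes tested), with all 4 groups of a class in the genotype fit and WT libraries in the region fit, and with DESeq2 1.42.0 (R 4.3.3) as an alternative. The scripts were tested on simulated data, with changes planted in counts drawn from the real sums. Where each arm had at least 2 libraries, edgeR called 0 to 2.99% of planted 2-fold changes and 13.4 to 67.2% of 4-fold ones, depending on the comparison. Tables and figures were made with pandas 2.3.3, scipy 1.17.1, matplotlib 3.10.9 and numpy 2.4.6 under Python 3.11.15. Intervals on counts are exact Poisson intervals of 95% and cover counting error only. Replicate numbers pair the libraries: deviations from the group means of same-numbered WT cortical and hippocampal libraries correlated across genes, with r of 0.76, 0.67 and 0.44 for replicates 1, 2 and 3 in SST, 0.72, 0.69 and 0.47 in PVALB, 0.68, 0.58 and 0.36 in NGFC, 0.63, 0.62 and 0.23 in OPC and 0.91, 0.87 and 0.58 in OLIGO. The numbers come from the study's methods and also stand for the chemistry. Alternatives were an adjusted p under 0.05, DESeq2, library size scaling, no filter on low counts, the replicate block, other clusters, classes from markers alone, a stricter cell filter (at least 1000 genes, at most 10% mitochondrial UMIs, 19954 cells), doublets removed, Th cells left out, and each library left out in turn. Genes were named by rule: Grin1, the 10 members, Pcdh11x and Pcdh12, partners as counts with at most 3 examples of the largest change, clustered protocadherins as counts, and for each member the 2 genes of highest Pearson correlation among those of at least 50 CPM in 1 pooled level of class, region and genotype. Of these, 1 gene, and some marker sums, are not reported here. The members and lists were chosen with earlier results of these data known.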

Additional observations from a re-analysis of the deposited data

Results flagged for a closer look

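Pcdh15 differed between regions, and between genotypes, in opposite directions in different classes, where within each class the libraries of the compared groups did not overlap. Between WT hippocampus and cortex its log2 change was 0.47 in SST cells, -1.17 in PVALB cells, -1.44 in NGFC cells and -0.71 in OLIGO cells. The PVALB value was -0.61 without cluster 31 and 0.03 where cells were classed by markers alone. In the reported classes the SST change was above that in PVALB by 1.64, above that in NGFC by 1.90 and above that in OLIGO by 1.18. Between genotypes in cortex its log2 change was 1.26 in PVALB cells, -0.63 in OPC cells, where the null arm was 1 library, and -1.07 in OLIGO cells. With cluster 31 left out, a step chosen after seeing the data, the PVALB value was 0.02, and the OLIGO value rests partly on a null sum of 18 cells with 0 UMIs of Pcdh15. With all cells the PVALB change was above that in OPC by 1.89 and above that in OLIGO by 2.33. None of these changes was called by edgeR in its own class, the classes come from the same libraries, and the difference between classes was not tested.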

How the results depend on the processing

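The number of protocadherin members called stayed at 0 in all 18 comparisons under every alternative run, over 2829 tests of members beside the 151 reported, by edgeR or, in that alternative, by DESeq2. The direction of a member turned in 182 of these tests, none of them of a called change, and the cause was not tested. The number of genes called, by edgeR 5 between regions in SST, 4 between regions in PVALB and 0 in every other comparison, moved more. At an adjusted p under 0.05 it was 1 in SST cortex, 1 in SST hippocampus and 9 in PVALB cortex for genotype, and 33, 8 and 1 between regions in SST, PVALB and NGFC. By DESeq2 it was 2 and 2 in SST, 13 and 1 in PVALB (cortex first), 1 in NGFC hippocampus and 1 in OLIGO hippocampus for genotype, and 132, 23, 4, 2 and 5 between regions in SST, PVALB, NGFC, OPC and OLIGO. With no filter on low counts it was 21 and 20 in SST, 56 and 15 in PVALB and 10 and 25 in OLIGO for genotype (cortex first). It was 24 in NGFC hippocampus and 5 in OPC hippocampus under that setting. Between regions it was 146, 92, 38, 4 and 25 in SST, PVALB, NGFC, OPC and OLIGO, and for the interaction 1 and 3 in SST and PVALB. With the replicate block it was 4 in PVALB cortex, 13 in OPC hippocampus and 2 and 3 in OLIGO cortex and hippocampus for genotype. Between regions the block gave 321, 57, 8, 51 and 54 in that order. Counts under these 2 settings are left out for cortical NGFC and OPC cells, whose null arm was 1 library. The block changed no call in the other comparisons. Clusters at resolution 0.6 gave 1 in PVALB cortex. Cells classed by markers alone gave 2 in PVALB cortex and 2 and 1 between regions in PVALB and OPC. Leaving Th cells out of SST gave 16 between regions. Among alternatives chosen after seeing the data, leaving out clusters that were shallow or nearly all WT gave 3 between regions in SST, and leaving out cluster 31 gave 1 in PVALB cortex. With 1 library left out in turn the number ranged from 0 to 5 in PVALB cortex and from 0 to 5 between regions in SST, and was 0 between regions in PVALB and in every other comparison, where the lone library of an arm left with 1 was taken to vary like the others. Leaving out null cortex replicate 2 gave no value for cortical NGFC and OPC cells or for the NGFC interaction, since no null library remained. Library size scaling, the stricter cell filter and the removal of doublets moved no other count by over 1.5 times. Why the counts moved was not tested. Few libraries limit what can be called, and Grin1 itself did not pass, so a steady count of 0 does not show that members were equal. Sums of few cells limit the OPC and OLIGO comparisons, down to 18 cells in a null cortical OLIGO sum. A null arm of 1 library limits those of cortical NGFC and OPC cells and the NGFC interaction.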
